A study of Rattus norvegicus with 6 samples.

Results

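The insulin-like growth factor family was followed in rat hippocampus after permanent closure of both common carotid arteries, which lowers the blood supply of the forebrain. Its 10 genes were chosen by name: the ligand genes Igf1 and Igf2, the receptor genes Igf1r and Igf2r, and the genes of the binding proteins Igfbp2, Igfbp3, Igfbp4, Igfbp5, Igfbp6 and Igfbp7. All 10 were among the 17489 named genes of the array, and they were read by 13 of its 30367 probes. Expression was measured on 6 one-colour Agilent arrays, 1 for each pool of hippocampal RNA from male Wistar rats. The control pool came from rats aged 12 weeks per the labels. Each other pool came from rats whose arteries had been tied under isoflurane, and these are called by their day: day 21 (labelled age 13 weeks), day 35 (14 weeks), day 45 (15 weeks), day 55 (16 weeks) and day 70 (17 weeks). These ages do not follow the spacing of the days. They rise with the day and the control pool is the youngest, so labelled age and time after occlusion cannot be told apart. How many rats made up a pool, and whether control rats underwent sham surgery, the labels do not state. The series' title calls the regulation biphasic, so the question was on which days the family stood apart from the control.

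IGF-1 and IGF-2 are small secreted peptides that act mainly through the IGF-1 receptor, a tyrosine kinase upstream of PI3K and AKT. The IGF-2 receptor, also the mannose 6-phosphate receptor, takes up IGF-2 and leads it to lysosomes. The binding proteins hold the ligands outside the cell and set how much of them reaches the receptor. In the adult brain, Igf1 is made by scattered neurons and by activated microglia, and Igf2 mostly by the leptomeninges and the choroid plexus. Igfbp2 is also known from these border tissues and from astrocytes.

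Slide 1 carried the control with days 21 and 35, and slide 2 carried days 45, 55 and 70, so slide and time cannot be told apart across the slides. Values are log2 of the processed signal minus the 75th percentile of the array, and a difference is a day's value minus the control's. With 1 array per group, no difference has an error between animals and none was tested. The only measured spread is between spots of the same array. Among probes printed 10 times per array, the median SD between spots implies an SD of 0.083 log2 units for a difference between 2 spots. This SD leaves out variation between labellings and between arrays, so a difference between 2 arrays can vary more. Per array, 12669 to 13738 genes had a signal well above background. All 13 probes of the family were well above background on all 6 arrays, none was saturated and none of their spots was an outlier, so no value of a member is a bound. Of 9 markers of hippocampal principal neurons, 8 or 9 were well above background on each array.

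The sequences of 4 probes are shown because they name what was hybridised for genes past 2-fold at day 21 and for genes that were not. The first pair reads Igf1 and Igfbp2, which were, and the second pair Igf1r and Igfbp6, which were not, and each reads through the coding frame of its gene. Capitals mark the stop codon that ends the Igfbp2 reading frame.
Igf1, chr7:24587916-24587975, plus strand, rn4: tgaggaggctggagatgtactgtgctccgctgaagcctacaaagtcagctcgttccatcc
Igfbp2, chr9:71993843-71993902, plus strand, rn4: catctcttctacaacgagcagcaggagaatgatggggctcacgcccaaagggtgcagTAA
Igf1r, chr1:122989150-122989209, plus strand, rn4: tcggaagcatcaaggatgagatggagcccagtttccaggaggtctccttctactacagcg
Igfbp6, chr7:140888422-140888481, plus strand, rn4: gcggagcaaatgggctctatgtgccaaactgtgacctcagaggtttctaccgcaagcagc
The other probe of Igf1 begins 16799 bases further along the chromosome, at chr7:24604715-24604774. The other probe of Igfbp2 begins 288 bases further along, at chr9:71994131-71994190. Igfbp2 and Igfbp5 are neighbours on chromosome 9, on opposite strands, with 6122 bases between their nearest probes.

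At day 21, 3 members stood at least 2-fold above the control: both ligand genes and Igfbp2. Igf1 was 6.3-fold higher, Igfbp2 4.83-fold and Igf2 3.13-fold. Igfbp7 and Igfbp5 were higher by less than 2-fold, and the receptors and the other binding protein genes had differences of -0.16 to 0.00 log2 units. In bulk RNA of this kind, a change in the number of cells of a type and a change in RNA per cell cannot be told apart. No member was 2-fold lower, and no member was 2-fold away from the control at day 35, 45, 55 or 70. Of all 14008 genes measured at day 21, 3.58% passed 2-fold upwards and 1.87% downwards, 5.45% in all. At days 35, 45, 55 and 70 the shares upwards were 0.450%, 0.593%, 0.647% and 0.659%, downwards 1.12%, 5.75%, 4.94% and 6.73%, and in all 1.57%, 6.34%, 5.58% and 7.39%. The median difference of the 10 members was 0.25 at day 21 against -0.07 for all genes, with 6 members above the control (Igf2r among them by 0.003) and 39.2% of all genes above it. At days 35, 45, 55 and 70 the members' median was -0.02, -0.02, -0.02 and 0.00, against -0.04, -0.06, -0.04 and -0.03 for all genes. On these days 5, 5, 4 and 5 members lay above the control, some by less than the SD between spots given above, against 41.4%, 37.9%, 41.2% and 42.2% of all genes.

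**Figure D1:**
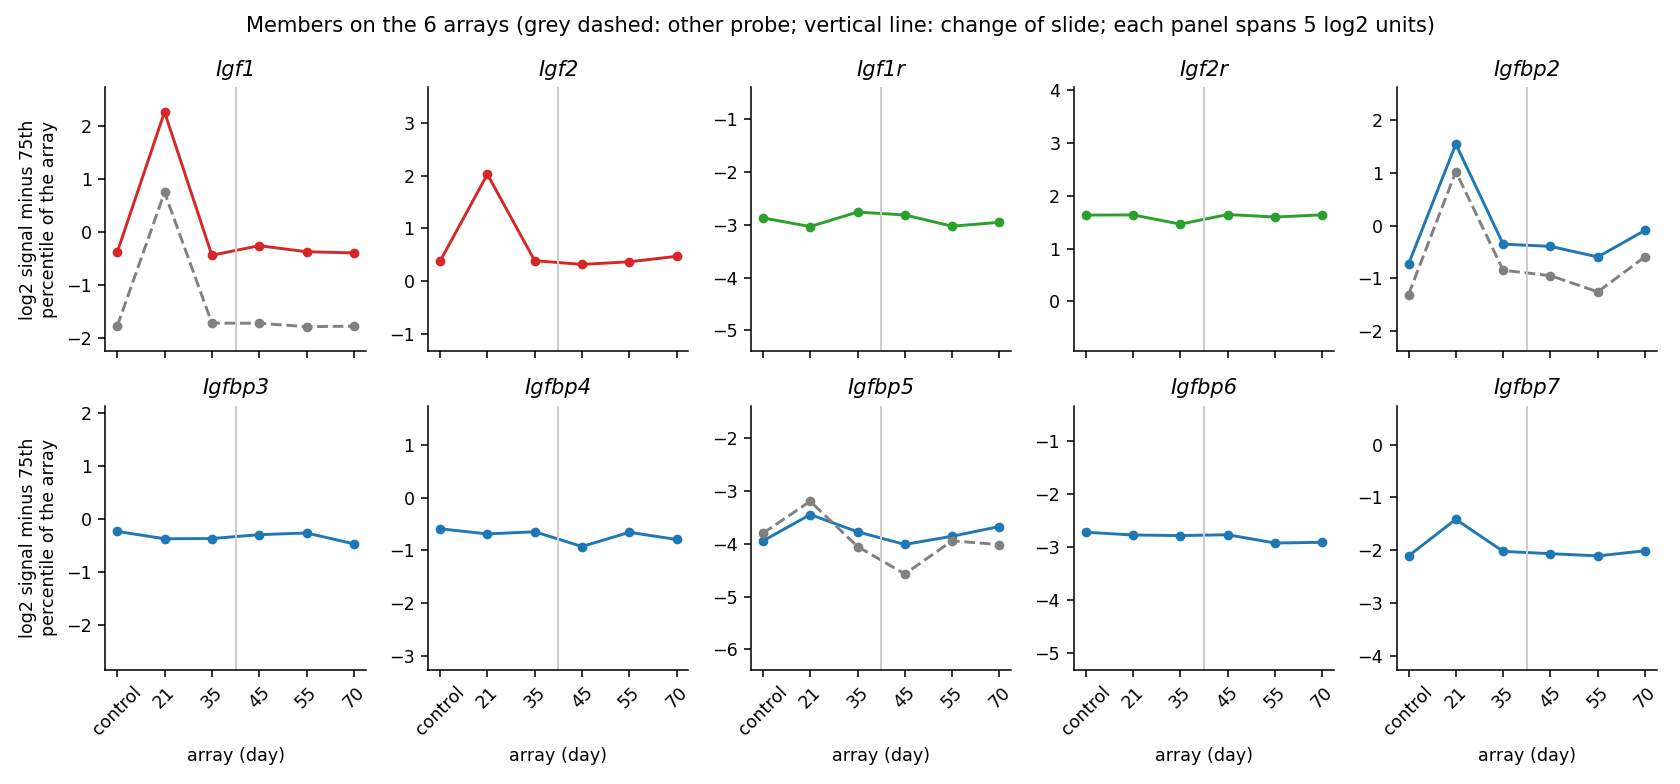
Scaled log2 signal of each member (vertical axis) on the control array and the arrays of days 21 to 70 (horizontal axis), with ligands in red, receptors in green, binding proteins in blue and other probes of the same gene in dashed grey. Igf1, Igf2 and Igfbp2 peak on the day 21 array, while Igf1r, Igf2r, Igfbp3, Igfbp4 and Igfbp6 run nearly level.

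Igf1 was the member with the largest difference. The probe chosen for the gene read 1008 intensity units in the control, 6015 at day 21, 1111 at day 35, 1110 at day 45, 994.3 at day 55 and 1058 at day 70, before scaling. Scaled, these were -0.38, 2.27, -0.44, -0.26, -0.37 and -0.39. The day 21 array stood alone, and the other 5 arrays lay within 0.18 log2 units of each other. The coding-region probe printed above gave 382 units in the control, 2095 at day 21, 456.1 at day 35, 401.4 at day 45, 371.8 at day 55 and 404.8 at day 70. At this probe Igf1 was 5.79-fold higher at day 21 (2.53 log2 units, against 2.65 at the other probe), so the difference was read by probes 16799 bases apart. The gap between the probes was 0.12 at day 21 and no larger at any other day. Among the 14008 genes, 51 had a larger difference at day 21.

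Igf2 was higher on the same array by a smaller amount. Its 1 probe, at chr1:202906641-202906700 on the minus strand, had scaled values of 0.38 in the control, 2.02 at day 21, 0.39 at day 35, 0.32 at day 45, 0.37 at day 55 and 0.47 at day 70. Apart from day 21 the arrays lay within 0.15 of each other. At day 21 the difference was 1.65, exceeded by 207 genes. H19, the imprinted noncoding RNA gene beside Igf2, is no member of the family. Its signal was 0.96 log2 units (1.95-fold) above the control at day 21, and 0.09, -0.08, -0.24 and 0.07 from it at days 35, 45, 55 and 70.

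Igf1r and Igf2r, the receptor genes, stayed near the control throughout. Igf1r was printed 10 times, and its mean over 10 spots was 179.9 ± 13.0 intensity units (SD between spots) in the control, 151.9 ± 8.42 at day 21, 222.5 ± 15.3 at day 35, 188.7 ± 7.95 at day 45, 157.7 ± 3.37 at day 55 and 179.5 ± 9.08 at day 70. Once scaled, the values ran from -3.03 at days 21 and 55 to -2.76 at day 35, and the differences from -0.16 to 0.11. Igf1r was about equally low at days 21 and 55, with a difference of -0.16 on both arrays. Igf2r ran from 1.46 at day 35 to 1.65 at day 45, and its difference at day 21 was 0.00. Neither receptor gene came near the 2-fold mark on any array.

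Igfbp2, whose product binds both ligands, differed most among the binding proteins. The probe chosen for it had scaled values of -0.73 in the control, 1.54 at day 21, -0.35 at day 35, -0.39 at day 45, -0.59 at day 55 and -0.09 at day 70. The control was the lowest array, and every later array stood above it. All these differences share that 1 control array, and whether its own value was low was not tested. The differences at days 21, 35, 45, 55 and 70 were 2.27, 0.38, 0.33, 0.13 and 0.64. The probe that ends at the stop codon gave 2.33, 0.46, 0.36, 0.05 and 0.72, the same order. Day 70 was 1.56-fold above the control at the chosen probe and 1.64-fold at the other. Within the later slide, Igfbp2 at day 70 stood 0.30 above day 45 and 0.50 above day 55, a comparison that does not cross slides. Within the earlier slide, day 35 lay 1.89 below day 21. Unlike the ligand genes, whose 5 arrays other than day 21 spanned 0.18 and 0.15, Igfbp2 spanned 0.64 over the same arrays. The median span over the 12412 genes well above background everywhere was 0.29.

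**Figure D2:**
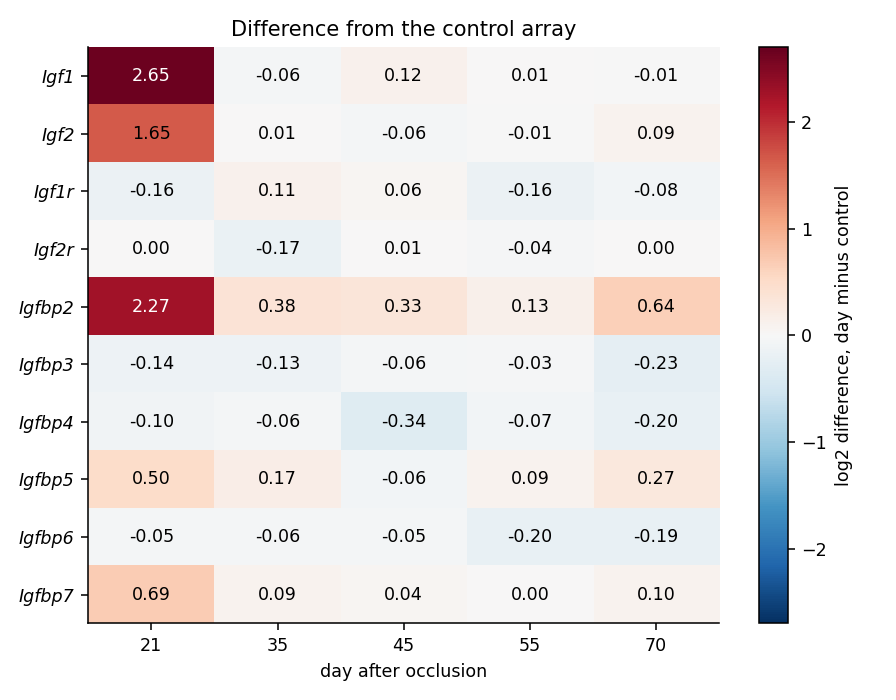
Log2 difference from the control array for each member (rows) at each day (columns), with red for higher, blue for lower and the value printed in each cell. The 3 cells past 1 log2 unit are all in the day 21 column, and Igfbp2 is above 0 in all 5 columns, which share 1 control array.

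Igfbp7, whose product binds IGFs weakly and is made by vessel walls, was 1.62-fold higher at day 21. Its scaled values were -2.11 in the control, -1.41 at day 21, -2.02 at day 35, -2.06 at day 45, -2.11 at day 55 and -2.01 at day 70. The day 21 value stood alone here too, and the other 5 arrays lay within 0.10 of each other, the narrowest such span of the family. At day 21, 869 genes had a larger difference than Igfbp7.

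Igfbp5, a matrix-bound binding protein gene, was also above the control at day 21, but its probes went apart on other arrays. The chosen probe, at chr9:72000312-72000371, had differences of 0.50, 0.17, -0.06, 0.09 and 0.27 at days 21, 35, 45, 55 and 70. The other probe, at chr9:72003659-72003718, had differences of 0.61, -0.25, -0.77, -0.14 and -0.21. The probes had the same sign at days 21 and 45 alone, and they lay 0.71 apart at day 45. Their starts are 3347 bases apart, and the day 21 difference was the 1 that both read with the same sign and a similar size.

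Igfbp3, Igfbp4 and Igfbp6, which encode the main carrier of the circulation, an inhibitory binding protein and one that prefers IGF-2, did not reach 2-fold on any array. Igfbp3 ran from -0.23 in the control to -0.47 at day 70, and Igfbp6 from -2.72 in the control to -2.93 at day 55. Igfbp4 ran from -0.59 in the control to -0.93 at day 45. The control was the highest array for all 3 genes. All differences share that 1 array, and on each day 37.9% to 42.2% of all genes lay above it. The differences of the 3 genes at day 21 were -0.14, -0.10 and -0.05, and the largest, -0.34, belonged to Igfbp4 at day 45. On the day 21 array, then, Igfbp2, Igfbp7 and Igfbp5 lay above the control and Igfbp3, Igfbp4 and Igfbp6 slightly below it. Of all 14008 genes measured there, 1275 had a larger difference than Igfbp5, and 8421 lay below the control.

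**Figure D3:**
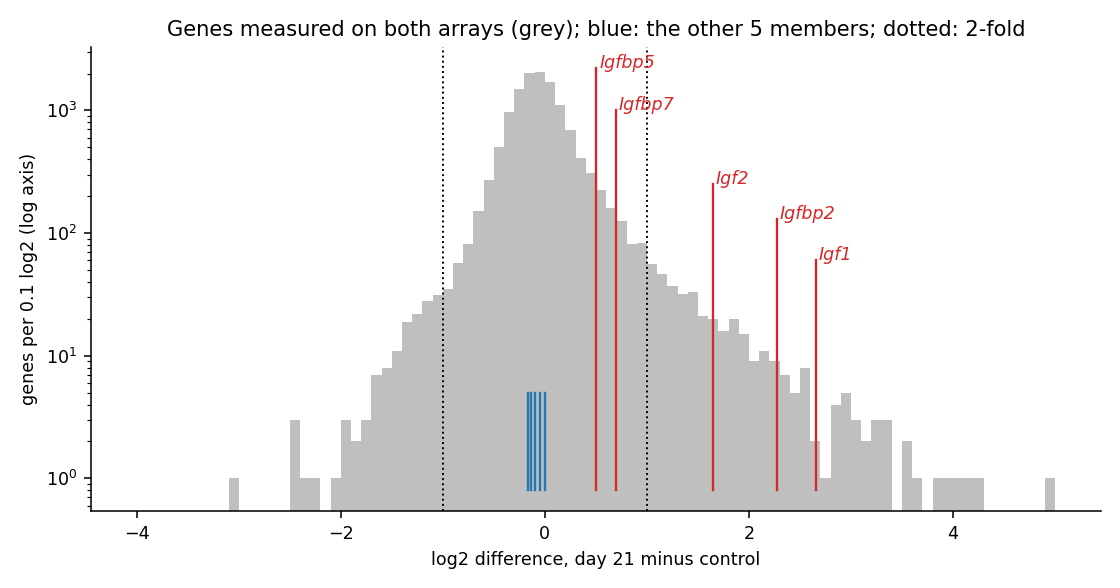
Histogram of the log2 difference between day 21 and control (horizontal axis) for all genes measured on both arrays (grey, number of genes per bin on a log axis), with values below -4 and above 5 in the end bins and the members as vertical lines. Igf1, Igfbp2 and Igf2 lie beyond the dotted 2-fold line, Igfbp7 and Igfbp5 between it and 0, and the other 5 members near 0.

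The promoters of the 3 genes that stood at least 2-fold higher at day 21 are shown to compare them. They are the 250 bases before a RefSeq transcription start in build GRCr8, from windows found for all 10 members (11 windows, since Igf2 has 2). Capitals mark GGGCGG, a GC box, and CACGTG, an E-box, on either strand.
Igf1, chr7:24172282-24172531, plus strand: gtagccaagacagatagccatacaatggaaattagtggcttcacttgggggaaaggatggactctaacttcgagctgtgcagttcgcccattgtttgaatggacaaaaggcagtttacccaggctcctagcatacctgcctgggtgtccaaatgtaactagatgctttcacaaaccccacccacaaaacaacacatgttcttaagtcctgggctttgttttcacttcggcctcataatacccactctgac
Igf2, chr1:207250476-207250725, minus strand: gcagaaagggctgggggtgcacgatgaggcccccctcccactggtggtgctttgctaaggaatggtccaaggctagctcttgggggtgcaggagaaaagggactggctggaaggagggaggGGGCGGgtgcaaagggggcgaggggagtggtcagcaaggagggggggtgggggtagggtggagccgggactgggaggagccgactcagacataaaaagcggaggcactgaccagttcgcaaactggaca
Igfbp2, chr9:81864561-81864810, plus strand: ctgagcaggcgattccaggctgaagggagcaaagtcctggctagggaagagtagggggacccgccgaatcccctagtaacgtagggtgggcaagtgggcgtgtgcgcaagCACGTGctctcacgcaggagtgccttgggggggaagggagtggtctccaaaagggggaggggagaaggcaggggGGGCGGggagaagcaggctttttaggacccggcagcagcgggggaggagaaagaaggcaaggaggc
The 6 motifs searched on both strands were the TATA box TATAAA, the GC box GGGCGG, the E-box CACGTG, the AP-1 site TGANTCA, the STAT site TTCNNNGAA and the ETS core GAGGAA, and no match of one overlapped a match of another. GGGCGG was found in the shown windows of Igf2 and Igfbp2, and in 5 of the 11 windows of the family, against 30.5% of 33469 rat windows of the same length. CACGTG was found in Igfbp2 and in 3 of the 11, against 5.59%. TATAAA was found in 1 of the 11, that of Igfbp4, against 12.9%. The window of Igf1 held none of the 6, and neither did the Igf2 window that is not shown, at chr1:207253981-207254230. No window of the family held TGANTCA (6.34% of all windows), TTCNNNGAA (7.67%) or GAGGAA (23.3%). None of the 6 motifs was therefore common to the 3 windows shown, and these matches are letters, not measured binding.

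The genes whose profile over the 6 arrays was nearest to that of a member were found by the root mean square difference of centred log2 values. For Igf1 these were Fcgr2b, an IgG receptor gene of myeloid cells (0.11 log2 units, r = 0.996), Itgb2, the leukocyte integrin beta chain gene (0.11, r = 0.997), and Anxa1, annexin A1 (0.13, r = 0.995). For Igf2 they were Aif1, which encodes the microglial protein Iba1 (0.063, r = 0.995), Anxa2 (0.074, r = 0.995) and the carnosinase gene Cndp1 (0.079, r = 0.993). For Igfbp2 they were Fmod, a small proteoglycan gene (0.13, r = 0.986), the leukocyte tetraspanin gene Cd53 (0.15, r = 0.98) and the myosin gene Myo1g (0.16, r = 0.979). These correlations describe 6 arrays and rest mostly on the day 21 array, which is high for all of these genes, so they carry no test.

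Markers of several cell types moved on the same arrays. Of 15 microglia and macrophage markers, 11 were at least 2-fold higher at day 21, with a median of 1.64, and all 15 were above background on every array. The mean of their scaled values was 1.05 at day 21 and between -0.61 and -0.44 on the other 5 arrays. Of 12 measured markers of meninges and fibroblasts, 6 were at least 2-fold higher at day 21, with a median of 0.97, and their mean level was -1.12 there against -2.27 to -2.13 elsewhere. Of 12 measured choroid plexus markers, 7 were at least 2-fold higher at day 21, with a median of 1.35. The parts that these cell types had in the Igf1, Igf2 and Igfbp2 differences were not tested.

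On the later arrays the choroid plexus list did not run level. Its median was 0.62 at day 35, -0.29 at day 45, -0.05 at day 55 and 1.01 at day 70. Its mean level, in the order of the arrays, was -5.17, -3.31, -4.27, -5.92, -5.52 and -3.75, and 5 to 12 of its 13 genes were well above background. Ttr, the transthyretin gene, was saturated at day 21, where its difference of 4.14 is a lower bound. It stood 3.17 above the control at day 35 and 3.91 at day 70, but -0.03 and -0.05 from it at days 45 and 55. Other genes of the list differed from Ttr: 8 of 11 measured genes lay above the control at day 35 and 3 below. At day 70, 9 of 11 lay above and 2 below, among them Clic6 at -1.21. Otx2 stood at 1.38 at day 55. At days 35 and 70, Igf2 stood at 0.01 and 0.09 and Igf1 at -0.06 and -0.01. Igfbp2 stood at 0.38 and 0.64 on these arrays, and at 0.33 on the day 45 array. The part of the choroid plexus in these values was not tested. Of 7 astrocyte markers, 6 lay above the control at day 21, with a median of 0.25. Gfap, the astrocyte filament gene, was 2.02-fold higher, the 1 gene of that list past 2-fold, and the water channel gene Aqp4 was 1.59-fold higher. Of 12 endothelial markers, 1 was at least 2-fold lower at day 21 (the drug transporter gene Abcb1a, 2.39-fold) and none was 2-fold higher, with a median of -0.31. Abcb1a was not low at day 21 alone: it stood at -1.49, -1.59, -0.96 and -1.33 at days 35, 45, 55 and 70. No pericyte and smooth muscle, interneuron or principal neuron marker passed 2-fold at day 21, and the medians of these lists were 0.03, -0.08 and -0.11. The part of astrocytes in the Igfbp2 difference was not tested.

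**Figure D4:**
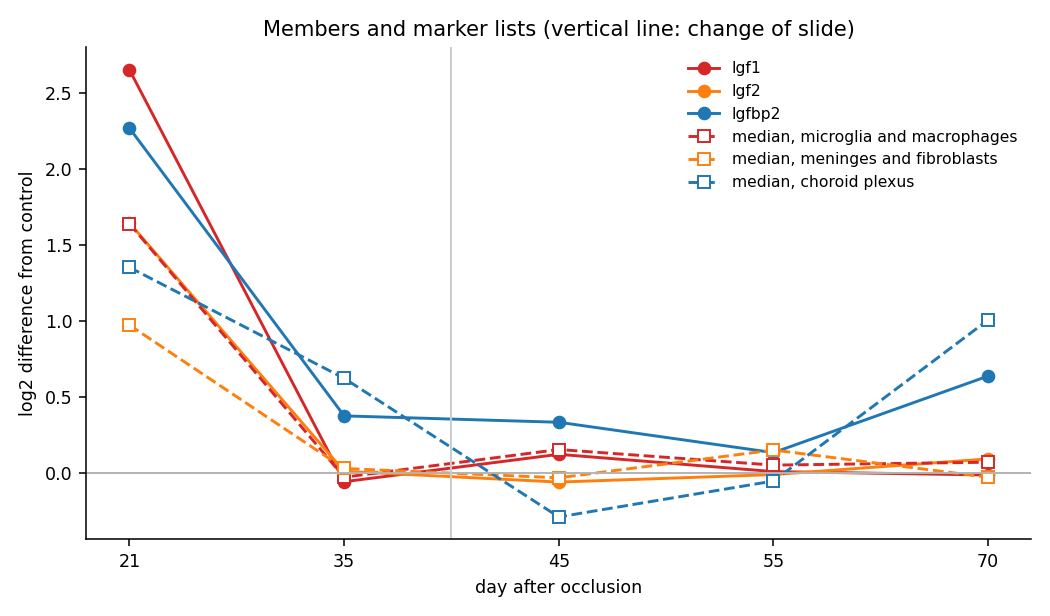
Log2 difference from control (vertical axis) at days 21 to 70 (horizontal axis) for Igf1, Igf2 and Igfbp2 (solid lines, circles) and the medians of 3 marker lists (dashed lines, open squares). The members and the lists are all highest at day 21, and at day 70 Igfbp2 (0.64) and the choroid plexus median (1.01) stand above the control while Igf1 and Igf2 do not.

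Other genes of the pathway were taken from lists of 47 genes, of which 45 had a probe and 40 could be measured in each comparison. None was 2-fold away from the control at day 21, against 5.45% of all genes, and their median was -0.14 against -0.07 for all genes. At days 35, 45, 55 and 70, 1, 2, 2 and 2 of the 40 were at least 2-fold lower, against 1.12%, 5.75%, 4.94% and 6.73% of all genes. None of the 40 was 2-fold higher on these days, against 0.450%, 0.593%, 0.647% and 0.659% of all genes. Their medians were 0.02, -0.08, -0.03 and -0.03.

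Among carriers, proteases and RNA-binding proteins, 9 of 13 were measured, with a median of -0.21 at day 21. The highest at day 21 was H19, at 0.96, and the lowest Pappa, whose product cleaves IGF binding proteins, at a bound of -0.88 because it was not well above background on that array. Igfbp1, a binding protein gene outside the 10, was at -0.71 at day 21. Its differences were -0.24, -0.76, -0.85 and -0.84 at days 35, 45, 55 and 70. Igf2bp2, which encodes an RNA-binding protein of the Igf2 messenger, was 0.29 above the control at day 21 and 0.22 below it at day 35. It was then 7.22-fold, 6.2-fold and 5.7-fold lower at days 45, 55 and 70, all on the later slide. Its other probe stood at a bound of -0.76 and at -0.05 and -0.67 on these arrays, so the size of the difference was not shared by both probes.

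Among insulin receptor family members and adaptors, 10 of 13 were measured and none passed 2-fold on any day. The adaptor gene Shc1 was highest at day 21, at 0.71, although its other probe stood at -0.02. Gab1, a docking protein gene, was lowest at day 21, at -0.53, and stood at -0.99 at day 45. Irs1 and Irs2, the insulin receptor substrate genes, stood at 0.27 and 0.06 at day 21.

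Among the PI3K, AKT and mTOR genes, all 21 were measured, and 16 lay below the control at day 21 with a median of -0.16, where 8421 of all 14008 genes lay below it with a median of -0.07. The regulatory subunit gene Pik3r1 was highest, at 0.46, and the leukocyte-enriched catalytic subunit gene Pik3cd lowest, at -0.92. Pik3cd was the 1 member of this list past 2-fold: it was 2.39-fold lower at day 35 and at least 2.53-fold, 3.26-fold and 3.17-fold lower at days 45, 55 and 70, where it was not well above background. Akt1 and Akt2, the kinase genes, stood at -0.43 and -0.67 at day 21 and at 0.26 and 0.97 at day 45. At days 35, 55 and 70 Akt1 stood at 0.19, -0.27 and 0.04, and Akt2 at 0.08, 0.09 and -0.18. Mtor stood at -0.30 at day 21 and at -0.01 at day 45. No gene of this list was 2-fold higher on any array. Of all genes, 3.58% were at day 21 and 0.450% to 0.659% on the other days, shares at which few or none of 21 would pass.

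**Figure D5:**
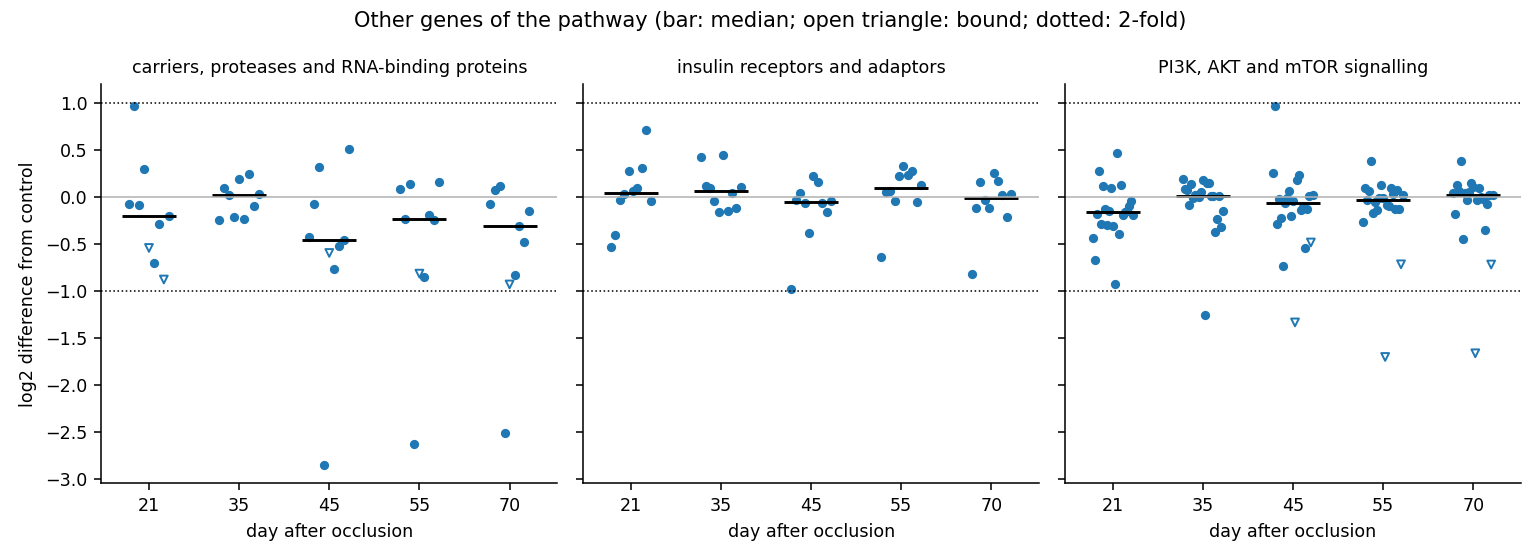
Log2 difference from control (vertical axis) of the other pathway genes at each day (horizontal axis), in 3 panels by role, with bars for medians, dotted lines at 2-fold and open triangles for bounds. The points past the lower dotted line are Igf2bp2 at days 45, 55 and 70 and Pik3cd at days 35 to 70, and no point is past the upper one.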

How the data were processed

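The authors deposited 1 scanner file per array. Per the file headers these were read with Agilent Feature Extraction 10.7.3.1, and probe positions are in build rn4. The deposited intensity (processed signal) had a fitted background surface subtracted and a multiplicative trend across the array removed, with no scaling between arrays, per the file headers and columns. RNA was pooled before labelling, per the labels' protocols. The labels name Cy5, whereas the files hold the green channel, which was used. From there, outlier spots (346 to 470 per array) were left out, log2 values were scaled by the 75th percentile over 42877 non-control spots, and spots of a probe were averaged. Probes were named through RefSeq (assembly GRCr8; 17328 by accession, 2632 by symbol, 717 by synonym, 187 by the file's own name, 9503 unnamed). A gene with several probes is given by the one with the highest mean. Promoters are RefSeq's, in GRCr8.

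If the dimmer array's probe was close to background, a bound was taken from that array's lowest signal well above background, or the probe's own if higher. "Higher" and "lower" mean at least 2-fold. With 1 array per group no test was possible, and precision is limited by there being 6 arrays. The error model of the scanner software gave 10.0 to 12.7% of the signal for the family's single spots. The 75th percentile of the signal was 1243 to 1504 intensity units. The members, lists and comparisons were chosen with earlier results of these data known. Named genes were the members, pathway genes 2-fold from control on any day or at either extreme of their list at day 21, and the 3 genes nearest in profile to members spanning at least 1 log2 unit. Other genes in the text were chosen after their values were seen. The calculations were tested on simulated arrays, which were copies of the control array with added noise and known folds in brighter genes. Such copies cannot show differences between pools, labellings or slides. Python 3.11.15, pandas 2.3.3, R 4.3.3 and limma 3.58.1 (normexp alternative) were used, and 10 alternatives were run.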

Additional observations from a re-analysis of the deposited data

How the results depend on the processing

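The count of members at least 2-fold higher at day 21 was 3 under all 10 alternatives, and no member passed 2-fold at another day under any of them. The alternatives were median scaling, quantile normalization, normexp correction, the authors' deposited values, outlier spots kept, the mean of a gene's probes, only genes well above background on all 6 arrays, no filter or bound, the median of the other 5 arrays as baseline, and the mean of the slide as baseline. Keeping outlier spots, the all-array filter and no filter or bound could not change a member. The members' probes were all well above background and had no outlier spot. The mean of a gene's probes could change only Igf1, Igfbp2 and Igfbp5. The day 21 difference ranged from 1.79 to 2.66 for Igf1, from 1.39 to 2.38 for Igfbp2 and from 1.09 to 1.70 for Igf2. The lowest value came each time from the slide baseline, which contains the day 21 array itself. Igfbp2 at day 70 stayed above 0 (0.27 to 0.75), whereas it turned to -0.51 at day 35 under the slide baseline. At days 45 and 55 it turned under both baselines, to -0.03 and -0.23 for the slide and to -0.04 and -0.24 for the other arrays. Counts of other pathway genes moved by 1 or 2 genes. The higher count became 1 at day 21 under quantile normalization, no filter and the other-array baseline, 1 at day 45 under median scaling and quantile normalization, 2 at day 35 under the other-array baseline, and 1 at days 55 and 70 with no filter. The lower count became 1 at day 21 with no filter. At day 35 it became 0 under normexp, the authors' values, the all-array filter and both baselines, and 2 with no filter. At days 45, 55 and 70 it became 1 under normexp, the authors' values, the all-array filter and the other-array baseline, 0 under the slide baseline, 4 with no filter at days 45 and 70, and 1 at day 45 under quantile normalization. Over all genes, 764 were past 2-fold at day 21 (65.7% of them higher), against 268 under normexp (89.2%), 483 with the authors' values (76.4%), 433 with the all-array filter, 1529 with no filter and 288 under the slide baseline (89.9%). The other-array baseline gave 847 (98.7%). At days 35, 45, 55 and 70 the main counts were 220, 877, 785 and 1031, of which 28.6%, 9.35%, 11.6% and 8.92% were higher. Normexp gave 49, 126, 105 and 168 and the authors' values 106, 214, 245 and 265. The all-array filter gave 71, 466, 318 and 477, no filter 717, 2148, 1745 and 2147, the slide baseline 107, 79, 86 and 108, and the other-array baseline 354, 405, 298 and 431. Quantile normalization gave 495 and 630 at days 45 and 70, and 47.2%, 43.6%, 34.4% and 40.8% of its calls were higher at the 4 days, against 36.8%, 31.8%, 29.8% and 27.9% with the authors' values. The cause was not tested. No paired analysis was possible because each group has 1 array. Dim probes such as those of Igfbp5 and Pik3cd are the least certain.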
